A study of Mus musculus with 11 samples.

Results

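The clustered protocadherins of mouse chromosome 18 were examined in RNA-Seq counts of granule cell precursors (GCps) from P7 cerebella, in 2 *Chd7*-deficient (cko) and 2 control libraries. Members were all genes of the chromosome whose symbol in the GENCODE vM21 annotation (GRCm38, the assembly also called mm10) begins with Pcdha, Pcdhb or Pcdhg. The count files list 24 of the 58 genes so named, among 38924 genes in all, with 1 in the alpha cluster, 22 in the beta cluster and 1 in the gamma cluster. The cko mice carried *Math1cre* and 2 floxed alleles (Math1cre;Chd7flox/flox), with Cre under the control of a promoter active in the granule cell lineage. Control mice are labelled wild type and Chd7flox/+, although the extraction notes give them 2 floxed alleles without Cre. All mice were on a C57Bl/6J background reached by backcrossing, for which the study's methods state only a minimum number of generations. Cerebella without lobules IX and X, where this Cre leaves posterior *Chd7* expression in place, were pooled by genotype.

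Clustered protocadherins are cell surface adhesion proteins that bind the identical protein on a facing cell. In many neuron types each cell switches on a small set of these genes by choosing among their promoters, with the insulator protein CTCF and cohesin looping a distant enhancer onto a promoter, and the resulting surface identity lets a neuron tell its own branches from those of others. The alpha and gamma clusters are built from an array of large variable exons, each with its own promoter, that are spliced to a shared set of short constant exons encoding the cytoplasmic end. Beta genes each consist of 1 exon and lack the constant exons.

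*Chd7*, the deleted gene, had 392 and 355 CPM (TMM-scaled counts relative to library size) in cko libraries and 322 and 319 CPM in control libraries. These counts are summed over the gene and not over the floxed exons, so they do not check the deletion. Between 61836588 and 77346481 reads were assigned per library. The GCp markers *Atoh1* (37.0 and 29.1 CPM in cko, 25.6 and 30.1 CPM in control) and *Barhl1* (507 and 587 CPM in cko, 480 and 460 CPM in control) were present in every library, with log2 fold changes of 0.25 and 0.22. The other 4 of 6 genes listed here as GCp markers had log2 fold changes below 0, and none of the 6 was called. Whether the listed genes mark precursors only was not tested. *Neurod1* had 475 and 780 CPM in cko and 1051 and 999 CPM in control libraries (-0.71, edgeR adjusted p = 0.268), *Pax6* had 460 and 468 CPM in cko and 589 and 552 CPM in control libraries (-0.30, adjusted p = 0.239), and *Zic1* and *Zic2* had log2 fold changes of -0.12 and -0.04. The 4 Purkinje cell markers summed to 1.66 and 2.80 CPM in cko and 2.18 and 2.22 CPM in control libraries. *Xist*, the RNA of the silenced X chromosome, reached 793 CPM in cko replicate 1, while 0.548 CPM was its highest value elsewhere, and the Y-linked *Ddx3y* had 0 reads in that library, against 4196 reads in cko replicate 2 and 5291 and 3843 reads in control libraries. The cko libraries thus differ in sex and hold different animals, while the control libraries show no such difference.

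The way these genes were annotated decides what the counts can show. The 34 members without a row carry identifiers numbered above the highest one in the files. In the alpha cluster, which spans 36930184 to 37187661 of chromosome 18, the only row belongs to ENSMUSG00000007440, named *Pcdha11* in vM21, as is a second gene that has no row. Its variable exon lies at 37005203 to 37007701, and its 2860 bp of constant exons, 53.4% of its exonic length, are shared with the 13 other alpha genes of vM21. In the gamma cluster, from 37661793 to 37841873, the only row belongs to ENSMUSG00000023036, named *Pcdhgc4*, of which 2119 bp (37.9%) are constant exons shared with the 21 other gamma genes. Neither row shares exonic sequence with another gene of the files that vM21 also holds. Reads in the constant exons, which come from any promoter of a cluster, would then count toward these rows, and whether the Ensembl 75 models used for counting also held other variable exons was not tested. The alpha and gamma values are therefore given as values of these rows and not of the isoforms *Pcdha11* and *Pcdhgc4*, and the remaining isoforms, *Pcdhac1*, *Pcdhac2*, *Pcdhgc3* and *Pcdhgc5* among them, were not analysed here. A further 1317 listed identifiers are not in vM21 and could not be placed.

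Of the 3 clusters, the gamma row was the highest. It held 560 and 646 CPM in cko libraries and 583 and 573 CPM in control libraries. The alpha row held 48.4 and 53.6 CPM in cko and 52.7 and 51.2 CPM in control libraries. The 22 beta genes together held 98.2 and 97.1 CPM in cko and 107 and 115 CPM in control libraries. The cko values lay on either side of the control values for the gamma and the alpha row, and below both control values for the beta sum. Divided by the length of each row's own vM21 model, mean levels were 108 CPM per kb in cko and 103 CPM per kb in control for the gamma row, and 9.52 CPM per kb in cko and 9.69 CPM per kb in control for the alpha row. Divided instead by all exonic sequence of a cluster, they were 8.51 and 8.15 CPM per kb in cko and control for the gamma row, 1.25 and 1.27 CPM per kb for the alpha row, and 1.06 and 1.21 CPM per kb for the beta cluster. The gamma row was the highest per length under either denominator.

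**Figure D1:**
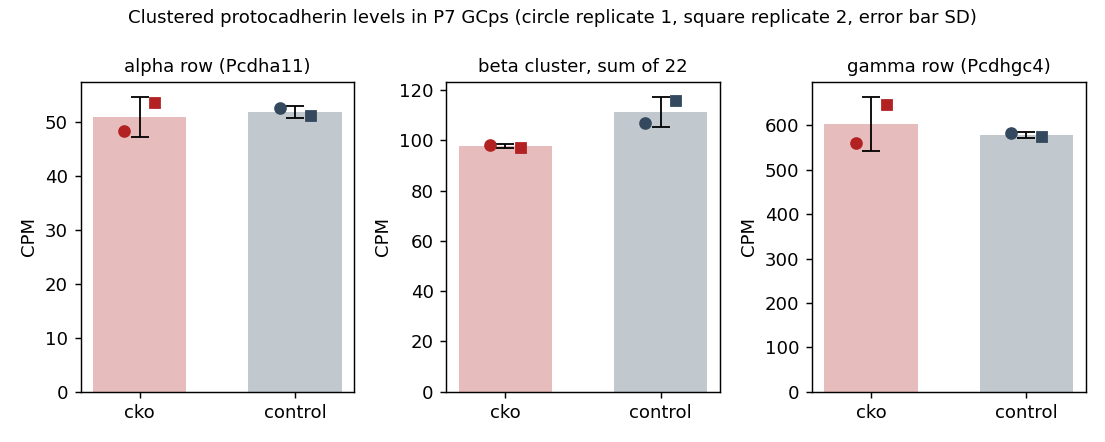
Level in CPM (vertical axes, from 0) of the alpha row, of the 22 beta genes summed and of the gamma row in cko and control GCps, with 1 point per library, bars at the mean and error bars of 1 SD over 2 libraries. The beta sums of 98.2 and 97.1 CPM in cko lie below the 107 and 115 CPM of control, whereas the libraries of the other rows overlap.

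None of the 23 members tested differed between genotypes with edgeR's quasi-likelihood test (threshold 0.05 after adjustment), which called 260 of 16436 genes, or 1.58%. Only *Pcdhb10* had an unadjusted p under 0.05, as did 13.6% of all tested genes, and DESeq2 also called 0 members. For the alpha row the log2 fold change was -0.03 (standard error 0.10, 95% interval -0.27 to 0.22, adjusted p = 0.957 in edgeR's test). For the gamma row it was 0.06 (standard error 0.11, 95% interval -0.20 to 0.33, adjusted p = 0.886). These intervals leave out a change of either row by more than 0.33 on the log2 scale as far as the spread between 4 libraries can tell, but a shift between isoforms within a cluster cannot be seen in a single row. The sign of the alpha row turned to 0.06 without cko replicate 1, and that of the gamma row to -0.05 without cko replicate 2.

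The beta genes had rows of their own and covered a range of levels. *Pcdhb17* was the highest, with 14.6 and 14.5 CPM in cko libraries and 16.4 and 18.1 CPM in control libraries, or 3.13 ± 0.00989 CPM per kb in cko and 3.71 ± 0.260 CPM per kb in control (SD, n = 2 libraries each). It contributed between 14.9% and 15.7% of the beta sum in each library. *Pcdhb20* followed, with 7.94 and 7.61 CPM in cko and 8.98 and 9.48 CPM in control libraries, or 2.18 ± 0.0649 CPM per kb in cko and 2.59 ± 0.0989 CPM per kb in control. *Pcdhb5* and *Pcdhb7* came next per length, at 1.81 CPM per kb each in cko and at 2.31 and 2.19 CPM per kb in control, and their order changed between the genotypes. The lowest of the 21 tested genes was *Pcdhb13*, at 0.414 ± 0.0715 CPM per kb in cko and 0.387 ± 0.00455 CPM per kb in control. The highest and the lowest tested gene thus differed 7.55-fold per length in cko and 9.58-fold in control. From cko to control the rank of a gene moved by 1.52 places on average and by 6 at most.

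The 7 genes at the end of the cluster nearest the gamma genes, *Pcdhb16* to *Pcdhb22*, held between 53.2% and 57.0% of the beta counts per library, a grouping chosen after the values were seen. These shares are not corrected for length. Per kb, *Pcdhb17* and *Pcdhb20* ranked 1 and 2 in both genotypes and *Pcdhb16* ranked 5 in cko and 6 in control. *Pcdhb18*, *Pcdhb19*, *Pcdhb21* and *Pcdhb22* ranked between 7 and 11. *Pcdhb16* had 8.93 and 8.55 CPM in cko and 7.92 and 10.7 CPM in control libraries, and *Pcdhb19* had 7.75 and 7.22 CPM in cko and 7.73 and 9.31 CPM in control libraries, with overlap between genotypes in both. At the other end of the cluster, *Pcdhb1* (37264938 to 37267525) had 0 reads in both cko libraries and 0 and 1 reads in the control libraries. Taking 3 reads as the limit, a count of 0 allows up to 0.0389 and 0.0488 CPM in cko replicates 1 and 2 and up to 0.0392 CPM in control replicate 1, for counting error only. *Pcdhb1* did not pass the expression filter and was the only member not tested.

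**Figure D2:**
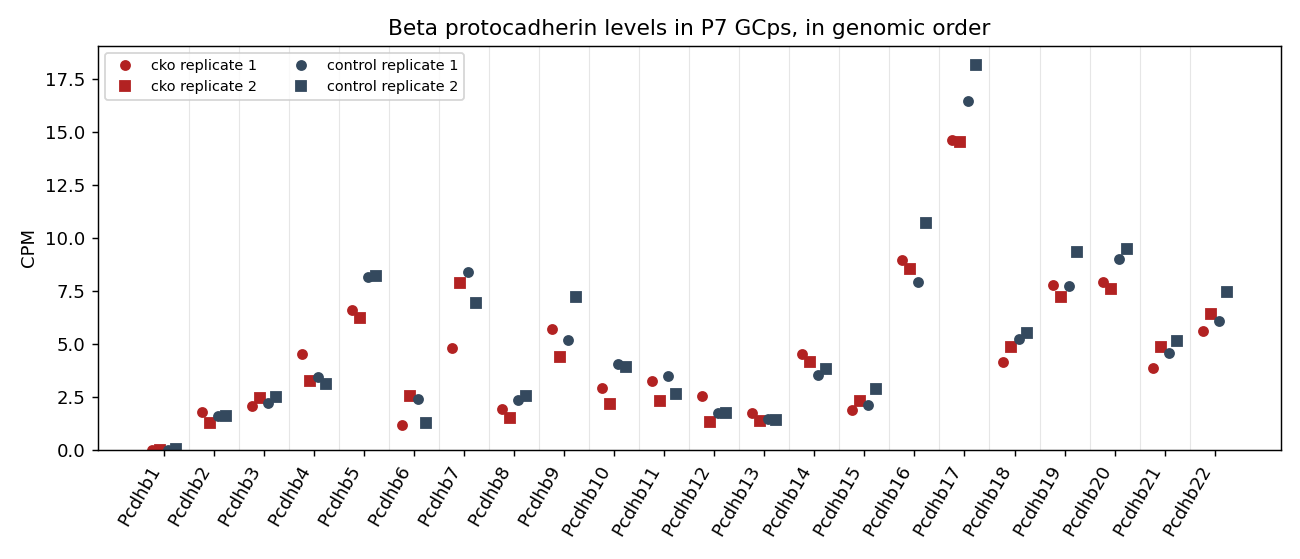
Level in CPM (vertical axis, from 0) of the 22 beta genes in genomic order (horizontal axis), with 1 point per library, cko in red and control in dark blue. *Pcdhb17* stands highest at 14.5 to 18.1 CPM, *Pcdhb1* lies at or near 0, and *Pcdhb6* shows the widest separation of replicates relative to its level.

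Most beta genes were slightly lower in cko GCps, none of them beyond the test's threshold. Of 21 tested, 16 had a log2 fold change below 0 and 5 above 0, with a median of -0.17, beside 50.1% below 0 and a median of 0.00 over all tested genes. The beta median was -0.055 without control replicate 2 and -0.29 without control replicate 1, so its size rested on single control libraries. Both cko libraries lay below both control libraries for 6 of the 21 beta genes, where 21.2% of all tested genes had that order, and above them for 1 of 21, where 22.7% of all tested genes did. The 6 were *Pcdhb5*, *Pcdhb8*, *Pcdhb10*, *Pcdhb17*, *Pcdhb18* and *Pcdhb20*, and the 1 was *Pcdhb14*.

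*Pcdhb10* had 225 and 132 reads, or 2.92 and 2.15 CPM, in cko libraries and 309 and 236 reads, or 4.03 and 3.91 CPM, in control libraries. Its log2 fold change of -0.65 was the lowest of the members (95% interval -1.19 to -0.11, standard error 0.23, edgeR unadjusted p = 0.0257 and adjusted p = 0.267), and it did not pass. Under the alternatives tried its adjusted p lay between 0.110 and 0.740, and its log2 fold change was -0.88 without cko replicate 1 and -0.45 without cko replicate 2. *Pcdhb5* had 6.57 and 6.21 CPM in cko and 8.16 and 8.20 CPM in control libraries (log2 fold change -0.36 with a standard error of 0.16, adjusted p = 0.391). *Pcdhb17* had a log2 fold change of -0.25 (standard error 0.13, adjusted p = 0.492) and *Pcdhb20* one of -0.25 (standard error 0.15, adjusted p = 0.576). Values of *Pcdhb8* were 1.92 and 1.48 CPM in cko and 2.35 and 2.55 CPM in control libraries (log2 fold change -0.52, adjusted p = 0.422).

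The highest log2 fold change was that of *Pcdhb4*, at 0.26 (edgeR adjusted p = 0.736, standard error 0.23), with 4.51 and 3.25 CPM in cko and 3.42 and 3.08 CPM in control libraries, which overlap. It was 0.0088 without cko replicate 1 and 0.47 without cko replicate 2, so cko replicate 1 carried this value. *Pcdhb14* had 4.51 and 4.16 CPM in cko and 3.55 and 3.80 CPM in control libraries (0.24, adjusted p = 0.683). Log2 fold changes of *Pcdhb16* and *Pcdhb19* were -0.09 (adjusted p = 0.904) and -0.19 (adjusted p = 0.738), and without control replicate 2 they were 0.14 and -0.047. Across the 21 tested beta genes the 95% intervals lay within a log2 fold change of 1 in either direction for 18 and reached beyond it for *Pcdhb6*, *Pcdhb8* and *Pcdhb10*.

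**Figure D3:**
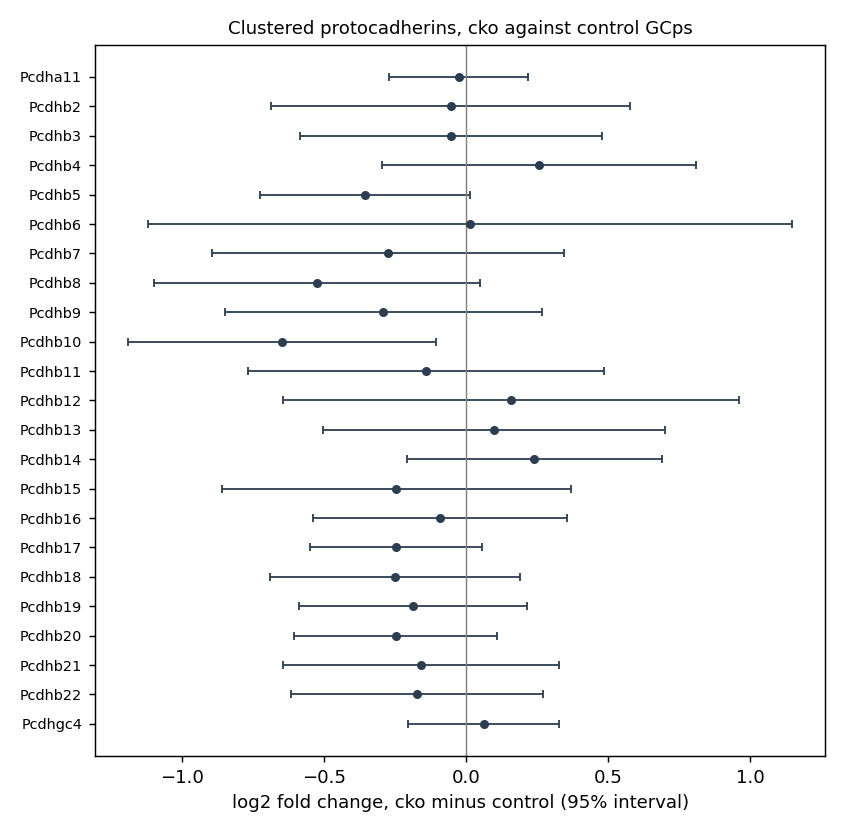
Log2 fold change between cko and control GCps (horizontal axis, cko minus control) of the 23 tested members (vertical axis, in genomic order), with 95% intervals from edgeR's quasi-likelihood fit. All intervals but that of *Pcdhb10* (-1.19 to -0.11) include 0, and that of *Pcdhb6* is the widest (-1.12 to 1.15).

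The beta genes summed to 97.7 ± 0.775 CPM in cko and 111 ± 5.97 CPM in control libraries (SD, n = 2 each), a log2 ratio of -0.19, which lay between -0.24 and -0.13 with each library left out in turn. No test was made of the sum, and an exact permutation test over 2 against 2 libraries cannot give p below 0.333. Markers of postmitotic neurons were also lower in cko libraries. All 7 had a log2 fold change below 0 (median -0.80) and 3 of them were called, beside 1.58% of all tested genes. Their sums were 2342 and 3002 CPM in cko and 4077 and 4156 CPM in control libraries. Among them *Gap43*, which encodes a growth cone protein, had 171 and 237 CPM in cko and 528 and 518 CPM in control libraries (adjusted p = 0.0231 in edgeR's test). All 4 inhibitory interneuron markers had a log2 fold change above 0. They summed to 58.2 and 59.0 CPM in cko and 43.9 and 52.9 CPM in control libraries. Of 5 astrocyte and Bergmann glia markers, 4 were below 0 and 1 above. Their sums were 549 and 598 CPM in cko and 638 and 731 CPM in control libraries. The 3 skeletal muscle markers summed to 17.5 and 36.7 CPM in cko and 4.40 and 2.72 CPM in control libraries. The 4 endothelial markers summed to 263 and 259 CPM in cko and 195 and 161 CPM in control libraries. All 5 oligodendrocyte lineage and all 3 microglia markers had log2 fold changes above 0, and all 3 meninges markers below 0, with 0 called in each set. The 2 choroid plexus markers summed to 30.7 and 1.28 CPM in cko replicates 1 and 2, and to 18.2 and 2.88 CPM in control replicates 1 and 2. They were thus higher in replicate 1 of both genotypes. The part of these cell types in the beta sum was not tested, and in bulk libraries fewer cells of a type and less RNA per cell cannot be told apart.

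Among themselves the beta genes fall into a set of close paralogs and a set of more distant ones. Over 231 pairs, coding sequences aligned with a nucleotide identity between 54.7% and 89.7% (median 73.1%). For *Pcdhb4* to *Pcdhb12*, which are neighbors on the chromosome, the nearest other member was 85.7% to 89.7% identical, while for the other 12 tested genes it was 74.1% to 76.8% identical. *Pcdhb6* and *Pcdhb8*, and likewise *Pcdhb7* and *Pcdhb9*, were the closest pairs. According to the study's methods, reads of low alignment quality were skipped in counting. Whether this removed the reads that align equally well to a pair of genes was not tested. Of the 50-base stretches of a beta transcript, no more than 11.3% also occur in a transcript of another gene, with the exception of *Pcdhb12* (64.2%), of whose exonic length 63.5% overlaps a vM21 gene that has no row in the files. At 100 bases this share was at most 2.31% in the other close paralogs, and 7.73% in *Pcdhb21* and 5.47% in *Pcdhb22*, which overlap each other. The read length is not given.

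Replicates differed most for members of the close set. *Pcdhb6* had 90 and 157 reads in cko replicates 1 and 2, or 1.17 and 2.55 CPM, and 182 and 77 reads in control replicates 1 and 2, or 2.38 and 1.28 CPM. The higher library of each genotype thus had about the same level, and the genotypes overlapped fully (log2 fold change 0.01 with a standard error of 0.46, edgeR adjusted p = 0.996). *Pcdhb7* had 4.82 and 7.85 CPM in cko and 8.41 and 6.91 CPM in control libraries, and *Pcdhb12* had 2.53 and 1.32 CPM in cko and 1.74 and 1.72 CPM in control libraries. In cko libraries the difference between replicates exceeded counting error (exact binomial 95% interval) for 7 of the 9 close paralogs and for 2 of the other 12 genes, with median absolute log2 ratios of 0.47 and 0.21 in these sets. In control libraries it did so for 4 of 9 and 5 of 12, with medians of 0.15 and 0.16, so the sets were set apart by the cko pair only. No test was made of this difference, since the sets were compared after the values were seen. The cko libraries also differ in sex and hold different animals, while the control libraries show no difference in sex and may not hold separate animals. Genotype, sex and animal cannot be told apart in this contrast of pairs. Over all 21 beta genes, replicates differed by more than counting error for 9 in each genotype, beside 58.4% of tested genes in cko and 50.8% in control. These shares depend on the number of reads, which is low for beta genes, and were not compared at matched depth.

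**Figure D4:**
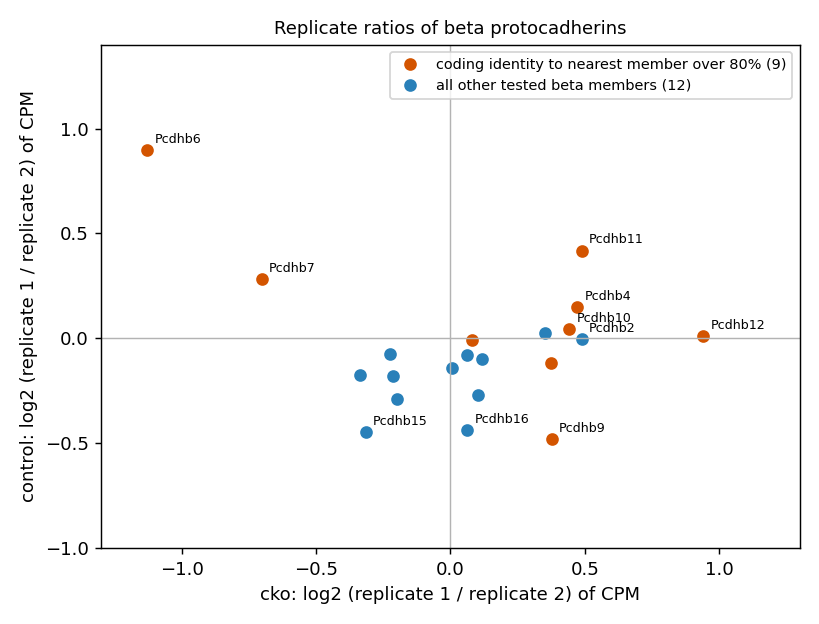
Log2 ratio of replicate 1 to replicate 2 in cko (horizontal axis) and in control libraries (vertical axis) for the 21 tested beta genes. Orange points are the 9 close paralogs and blue points the other 12 genes. *Pcdhb6* lies farthest out, at -1.13 in cko and 0.90 in control.

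In each genotype the 9 close paralogs made up a smaller part of the beta counts than the other 12 tested genes. No correction for gene number or exonic length was made, so this does not compare levels per gene or per kb. The close paralogs summed to 33.4 and 31.5 CPM in cko and 39.2 and 37.5 CPM in control libraries. The other 12 summed to 64.8 and 65.6 CPM in cko and 67.8 and 77.9 CPM in control libraries. The cko libraries lay below the control libraries in both sets, with log2 ratios of -0.24 and -0.16.

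Genes that lie before, between and after the clusters were examined as neighbors that share the chromosomal region but are not clustered protocadherins. *Pcdh1* among them is a non-clustered protocadherin gene. It had 17.2 and 15.2 CPM in cko and 14.3 and 12.4 CPM in control libraries (log2 fold change 0.28, edgeR adjusted p = 0.495). None of 14 passed in edgeR and 1 had p below 0.05 before adjustment, beside 1.58% and 13.6% of all tested genes. The median log2 fold change of the 14 was -0.02, with 4 above 0 and 10 below 0. *Taf7*, which encodes a subunit of the transcription factor TFIID and lies between the beta and gamma clusters, had 27.8 and 40.0 CPM in cko and 32.4 and 44.1 CPM in control libraries. *Diaph1*, an actin regulator gene next to the gamma cluster, had 67.0 and 69.3 CPM in cko and 67.1 and 67.4 CPM in control libraries. *Arap3*, a GTPase-activating protein gene, had 15.2 and 12.03 CPM in cko and 9.02 and 8.90 CPM in control libraries, without overlap (log2 fold change 0.61 with a standard error of 0.16, adjusted p = 0.149). It passed in DESeq2 (adjusted p = 0.0346), with the replicate block (0.0386) and without cko replicate 2 (0.0445). All 4 noncoding transcripts listed inside the clusters had a log2 fold change below 0 (median -0.23), and 0 were called, beside 1.58% of all tested genes. *Gm10545* had 25 and 25 reads in cko and 40 and 29 reads in control libraries (-0.46, edgeR adjusted p = 0.669). *Gm10544* (-0.31) had at most 13 reads per library, and *3222401L13Rik* was at -0.14. *Gm26672*, annotated on the strand opposite to gamma variable exons, had 11.3 and 11.3 CPM in cko and 11.7 and 11.8 CPM in control libraries (-0.06, adjusted p = 0.907). No source used here says whether counting used strand, so reads of *Gm26672* and of the gamma exons it overlaps cannot be told apart.

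Genes known to act on or with clustered protocadherins were likewise not called. Of 38 tested, 0 passed in edgeR and 4 had p below 0.05 before adjustment, beside 1.58% and 13.6% of all tested genes. Of the 38, 19 each had a log2 fold change above and below 0, but the lists pooled here differed in direction. Among 21 architecture and chromatin factors, 16 were above 0 and 5 below (median 0.086). All 6 cleavage enzymes were below 0, and of 11 signal and binding partners 3 were above 0 and 8 below. *Ctcf* had 278 and 298 CPM in cko and 279 and 294 CPM in control libraries (log2 fold change 0.01 with a standard error of 0.10, adjusted p = 0.989). *Rad21*, which encodes a cohesin subunit, had 642 and 825 CPM in cko and 658 and 784 CPM in control libraries (0.03, adjusted p = 0.975). *Smchd1*, which encodes a protein that represses clustered protocadherins in mice, had a log2 fold change of 0.04 (adjusted p = 0.938). The DNA methyltransferase gene *Dnmt3b*, which acts on promoters of these clusters in mice, had 17.3 and 16.9 CPM in cko and 13.8 and 13.2 CPM in control libraries (0.34, adjusted p = 0.288). For *Dnmt3a* the values were 112 and 88.6 CPM in cko and 81.6 and 79.5 CPM in control libraries (0.31, adjusted p = 0.343).

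The lowest p of the 38 was that of *Rest*, which encodes a repressor of neuronal genes, with 8.95 and 7.09 CPM in cko and 4.66 and 4.72 CPM in control libraries (log2 fold change 0.77 with a standard error of 0.19, edgeR adjusted p = 0.115). It passed in DESeq2 (adjusted p = 0.0141), with the replicate block (0.0325), without the filter on low counts (0.0462) and without cko replicate 2 (0.0475). All 6 genes of the proteases that cleave these proteins, *Adam10* and the subunits of gamma-secretase, had log2 fold changes below 0 (-0.20 to -0.03), with adjusted p of 0.501 or above. Among signal and binding partners, *Marcks*, which encodes an actin-binding substrate of protein kinase C, had 1239 and 1355 CPM in cko and 1611 and 1476 CPM in control libraries (-0.25, adjusted p = 0.439). *Nlgn1*, which encodes a postsynaptic adhesion protein, had 4.78 and 5.58 CPM in cko and 7.06 and 9.07 CPM in control libraries (-0.64, adjusted p = 0.202).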

How the data were processed

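The authors deposited raw read counts for each Ensembl gene, 1 file per library. According to the study's methods and the processing notes of the submitters, reads were aligned to mm10 with TopHat2 2.0.14 using Ensembl 75, and counted with HTSeq 0.6.1p1 in intersection-strict mode, skipping low alignment quality. Symbols and coordinates came from GENCODE vM21 for 37607 of 38924 genes.

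Genes were kept with filterByExpr, scaled by TMM and tested in R 4.3.3 with edgeR 4.0.16 (robust quasi-likelihood, legacy option), with Benjamini-Hochberg adjustment over 16436 genes at 0.05. The standard error is the log2 fold change over the root of F. Alternatives were DESeq2 1.42.0, other scalings, no filter, no robust option, the newer quasi-likelihood fit (chosen after seeing the data), the replicate block and each library left out. Steps were tested on simulated counts. Coding sequences were aligned with mafft 7.526. Named genes were the most counted, extreme and lowest-p members of each cluster, and the lowest-p genes of the lists; *Pcdhb6* to *Pcdhb8*, *Pcdhb12* to *Pcdhb14*, *Taf7*, *Diaph1*, *Gm26672*, *Ctcf* and others were named after their values were seen. Members and lists were chosen with earlier results of these data known. Whether replicates hold separate animals is not stated. Sex-linked transcripts show that the cko libraries do, and for the control libraries it is not known, so their spread may be technical. ATAC-Seq and H3K4me1 ChIP-Seq samples were not analysed here, and no sequence of these genes is printed.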

Additional observations from a re-analysis of the deposited data

How the results depend on the processing

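No clustered protocadherin was called under any of the 11 alternatives, and 15 to 17 beta genes had a log2 fold change below 0 in each. Over all tested genes the count of calls was 260, against 1010 with the replicate block (480 lower and 530 higher), 727 without the filter on low counts and 891 in DESeq2, and 115 to 712 with a library left out. Deviations of same-numbered libraries had a correlation of 0.19 over all tested genes and of -0.28 over the 21 tested beta genes. Only 2 pairs share a number, and no source says what it marks. Of the 12 named genes, *Rest* passed at a log2 fold change of 0.77 with the replicate block, without the filter and in DESeq2, and at 0.93 without cko replicate 2, and *Arap3* passed at 0.60 with the replicate block and in DESeq2 and at 0.77 without cko replicate 2. Signs of uncalled genes turned for the alpha row, to 0.021 with total counts only and 0.056 without cko replicate 1 (range -0.10 to 0.056 with a library left out), for the gamma row, to -0.045 without cko replicate 2 (-0.045 to 0.17), and for *Pcdhb16*, to 0.14 without control replicate 2 (-0.30 to 0.14). The log2 ratio of the beta sum was -0.24 to -0.13 and that of the gamma row's summed level -0.044 to 0.16 with a library left out. The causes were not tested. Beta members held 77 to 1259 reads per library apart from *Pcdhb1*, which limits what could be detected in the lower ones.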
